A study of Mus musculus with 3 samples.

Results

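The 36 genes described here encode BCL2 family proteins, caspases, inhibitor of apoptosis proteins and adaptors of death receptor and necroptosis signalling. They were taken by name from a list whose rule uses no measured value, though the list was drawn up with earlier results of these data known, and all 36 were found once each among the 21881 gene symbols of the deposited tables. RNA was measured in 3 tumours grown from the NDL(UCD) mouse mammary tumour line in 3 different mice. The line was kept in culture and its cells were then placed on both sides of FVB/NJ females at an age of 6 to 8 weeks (the strain field reads FVB/N), in mammary fat pads that had not been cleared of host epithelium. Tumours were harvested at a largest width of 5 to 10 mm and frozen at once, and libraries were built from 50 ng of total RNA depleted of ribosomal RNA. There was 1 group and no control, so that the comparisons are those between genes within a tumour, between a gene and a fixed level, and between the tumours.

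NDL tumours are known as a model driven by an activated form of the receptor Erbb2 (Neu) under a mammary tumour virus promoter. Because all 3 tumours came from 1 line, they show the variation of that line between hosts and not variation between independently arising tumours. The samples were bulk tissue from uncleared fat pads, so host epithelium, fat, stroma and immune cells could add RNA. For every value below, fewer cells of a type and less RNA per cell cannot be told apart.

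In the mitochondrial pathway of apoptosis, prosurvival proteins of the BCL2 family hold the effectors Bax and Bak1 in check, and BH3-only proteins bind to the prosurvival proteins or the effectors when a cell is stressed. Active effectors open the outer mitochondrial membrane, released cytochrome c assembles Apaf1 and Casp9, and executioner caspases follow, while inhibitor of apoptosis proteins restrain caspases or tag signalling proteins with ubiquitin. Death receptors act through Fadd and Casp8, and where Casp8 is blocked Ripk1, Ripk3 and Mlkl can carry out necroptosis. In the mammary gland, this machinery is known for its part in the loss of milk-producing epithelium after weaning.

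Promoter sequences are shown for 5 members because the gene group that differed most between the tumours, Casp1, Casp4 and Casp12, also had transcripts of low GC content (41.1%, 42.02% and 37.3%). Each sequence is the 250 bases before the annotated start in RefSeq (build GRCm38.p6), 5′ to 3′ on the strand of the gene, and 33 of the 36 members had an entry or an allowed sequence. Bik and Tradd had no entry and Pmaip1 was left out. Capitals mark letters that match the interferon-gamma activated site TTCNNNGAA, the GC box GGGCGG or the NF-kB motif on either strand, and overlapping matches run together. Casp1, Casp4 and Casp12 lie at chr9:5298267-5298516, chr9:5308599-5308848 and chr9:5345226-5345475, all on the plus strand. Mcl1 (chr3:95658471-95658720) and Bbc3 (chr7:16309333-16309582), also on the plus strand, are given for contrast as members with GC-rich promoters.
Casp1: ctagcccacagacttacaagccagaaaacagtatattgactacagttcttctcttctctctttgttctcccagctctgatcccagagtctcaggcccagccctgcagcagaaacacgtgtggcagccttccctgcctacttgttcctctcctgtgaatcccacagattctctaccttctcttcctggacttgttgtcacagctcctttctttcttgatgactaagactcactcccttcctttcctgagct
Casp4: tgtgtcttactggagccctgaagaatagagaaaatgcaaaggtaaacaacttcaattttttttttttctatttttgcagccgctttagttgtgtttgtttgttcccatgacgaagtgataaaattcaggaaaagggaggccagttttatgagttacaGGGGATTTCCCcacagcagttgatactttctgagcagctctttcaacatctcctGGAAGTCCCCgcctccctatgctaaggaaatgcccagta
Casp12: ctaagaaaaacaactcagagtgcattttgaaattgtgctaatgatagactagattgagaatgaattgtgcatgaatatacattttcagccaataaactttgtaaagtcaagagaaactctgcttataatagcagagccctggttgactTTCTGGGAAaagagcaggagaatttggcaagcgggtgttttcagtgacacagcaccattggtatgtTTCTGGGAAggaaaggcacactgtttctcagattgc
Mcl1: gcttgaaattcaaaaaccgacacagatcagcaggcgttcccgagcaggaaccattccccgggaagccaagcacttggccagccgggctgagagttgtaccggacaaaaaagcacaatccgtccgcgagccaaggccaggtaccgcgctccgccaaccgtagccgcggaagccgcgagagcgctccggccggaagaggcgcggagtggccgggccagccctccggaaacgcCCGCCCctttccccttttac
Bbc3: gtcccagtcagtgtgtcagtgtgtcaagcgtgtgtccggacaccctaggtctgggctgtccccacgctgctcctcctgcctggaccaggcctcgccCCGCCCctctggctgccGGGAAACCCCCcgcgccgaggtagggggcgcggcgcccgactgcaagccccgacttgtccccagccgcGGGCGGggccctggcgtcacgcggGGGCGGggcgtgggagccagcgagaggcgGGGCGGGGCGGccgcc
The Casp12 stretch held 2 matches to the interferon-gamma activated site, which begin 102 and 36 bases before the start, and 7.14% of 27025 promoters of this length held at least 1. The Casp4 stretch held 3 NF-kB matches, which begin 93, 92 and 39 bases before the start and of which the first and second overlap, against 7.03% of all promoters with any. Bbc3 held 2 NF-kB matches as well, which begin 137 and 136 bases before the start and overlap. Aifm1, not printed here, held 1 that begins 162 bases before the start. No other member of the 33 held either motif, and Casp1 held none of the marked motifs. Mcl1 had 1 GC box and Bbc3 had 5, and 33.0% of all promoters had any. The GC content was 49.2% for Casp1, 41.6% for Casp4 and 39.2% for Casp12, with 1, 3 and 1 CpG dinucleotides. It was 64.4% for Mcl1 and 76.4% for Bbc3, with 26 and 27 CpG dinucleotides. Over the 33 members the median was 60.4% GC and 14 CpG dinucleotides, against 52% and 6 over all promoters. A match of letters is a description and does not show that a factor binds.

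Most of the machinery was expressed. Levels are FPKM (fragments per kilobase of transcript, scaled to the mapped fragments of the library). Division by transcript length lets genes be set side by side, but it does not take out differences in base composition. With limma on log2((FPKM + 0.1)/(1 + 0.1)) and Benjamini-Hochberg adjustment over 18028 symbols, at an adjusted p of 0.05, 28 of the 35 members tested were above 1 FPKM, against 54.2% of all symbols. Below 1 FPKM were 2 members, Bok and Hrk, against 32.5% of all symbols. Bbc3, Pmaip1, Casp9, Casp4 and Ripk3 could not be separated from 1 FPKM, and Casp14 was listed at 0 in all 3 tumours. With each tumour's FPKM total scaled to the same fixed sum, 33 members were above and 1 below, against 64.5% and 23.3% of all symbols. With the symbols at 0 kept in the fit, Casp12, Bik and Bok were not separated from 1 FPKM. The median of the 35 members tested was 5.65 FPKM, against 2.44 FPKM over all symbols tested. Behind these levels stood 11.7, 12.4 and 13.4 M fragments in tumours 1, 2 and 3, as implied by the deposited intervals, and 27 members had at least 100 fragments in every tumour.

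**Figure D1:**
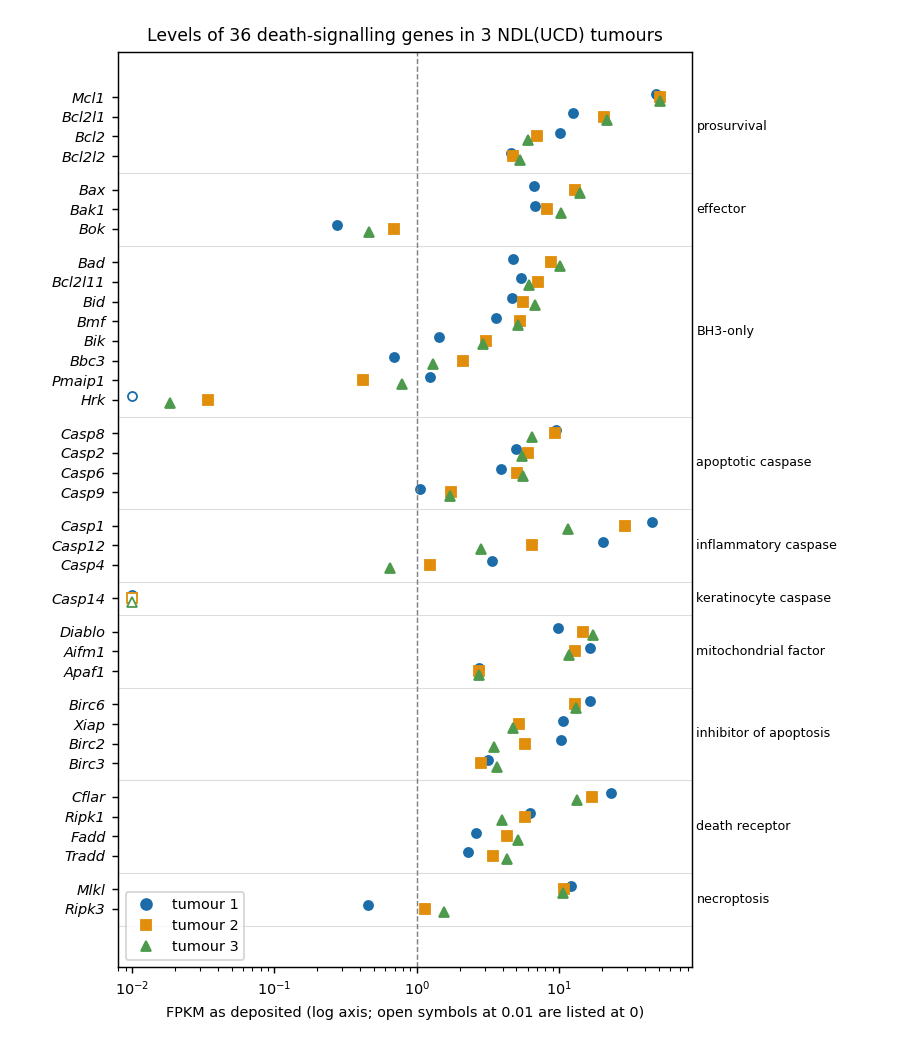
FPKM (log axis) of each of the 36 members in tumours 1, 2 and 3, grouped by role, with 1 symbol per tumour; the dashed line is 1 FPKM and open symbols at 0.01 stand for values listed at 0. Mcl1 lies highest at about 49.7 FPKM with its 3 symbols nearly on top of each other, Casp1 and Casp12 are spread widely, and Hrk and Casp14 lie at the bottom.

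Among the prosurvival genes, all 4 of which were above 1 FPKM, Mcl1 was the most abundant. Mcl1, a short-lived protein that restrains Bak1 and binds Bim and Noxa, had 47.5, 50.8 and 50.9 FPKM in tumours 1, 2 and 3 (49.7 ± 1.95, SD, n = 3). The 3 tumours lay within a ratio of 1.07, and its level was the highest of all 36 members (limma adjusted p = 1.09e-07 against 1 FPKM). Bcl2l1, which encodes BCL-XL, had 12.6, 20.5 and 21.6 FPKM. It was lowest in tumour 1, while tumours 2 and 3 were close, but with GC and length trends removed (as described below) it had 17.5, 18.7 and 17.1 FPKM and tumour 1 was no longer lowest. Bcl2, the founding member of the family, had 10.1, 7.01 and 6.04 FPKM and was highest in tumour 1. Bcl2l2, which encodes BCL-W, had 4.55, 4.74 and 5.27 FPKM and varied little. Mcl1 exceeded Bcl2l1 by 1.48 ± 0.37 on the log2(FPKM + 0.1) scale and Bcl2 by 2.71 ± 0.43, which is 6.52-fold, in all 3 tumours. Bcl2l1 minus Bcl2 was 0.31, 1.54 and 1.82 in tumours 1, 2 and 3, so that the pair was nearest to level in tumour 1. With the trends removed this contrast was 0.96, 1.40 and 1.28.

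Of the effectors, Bax and Bak1 were both well above 1 FPKM and Bok was below it. Bax, a mostly cytosolic protein that moves to mitochondria, had 6.68, 12.9 and 13.9 FPKM. Bak1, which resides in the outer mitochondrial membrane, had 6.78, 8.18 and 10.2 FPKM. Both were lowest in tumour 1 as deposited, where they were also level with each other (Bax minus Bak1 of -0.02 on the log2 scale, against 0.65 and 0.44 in tumours 2 and 3). With the trends removed Bak1 had 9.51, 7.46 and 8.00 FPKM, highest in tumour 1, while Bax, with 9.83, 11.7 and 10.5 FPKM, was still lowest there. Bok, a relative that the prosurvival proteins bind poorly, had 0.276, 0.689 and 0.464 FPKM from 10, 24 and 18 fragments. It lay below 1 FPKM with a limma adjusted p of 0.0156 but was not separated from 1 FPKM without tumour 1. Bak1 exceeded Bok by 3.93 ± 0.46, a 15.2-fold difference. Of the 50-base words of Bak1, 18.2% also occur in Ggnbp1, which had at most 0.240 FPKM.

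The 8 BH3-only genes covered the widest range, and 5 of them were above 1 FPKM. Bad, which binds BCL-XL and is switched off by phosphorylation downstream of growth factor receptors, had 4.75, 8.72 and 10.1 FPKM, lowest in tumour 1. Its locus overlaps Gpr137 by 596 bp, Gpr137 had 3.69, 4.11 and 6.13 FPKM, and since the libraries were directional but the strand setting of the counting is unknown the 2 genes' fragments may not be fully apart. Bcl2l11, which encodes the broad binder Bim, had 5.42, 7.08 and 6.11 FPKM. Bid, which Casp8 cleaves to link death receptors to mitochondria, had 4.63, 5.60 and 6.72 FPKM. Bim and Bid transcripts thus stayed within a ratio of 1.45 across the tumours. Bmf, known for its response to detachment of epithelial cells, had 3.59, 5.29 and 5.14 FPKM. Bik, a BH3-only protein of the endoplasmic reticulum, had 1.42, 3.05 and 2.91 FPKM and was not separated from 1 FPKM without tumour 2. As deposited, Bmf and Bik were lowest in tumour 1, as were 18 of the 32 members that averaged 1 FPKM or more, and with the trends removed Bmf was lowest in tumour 3 (4.59, 4.93 and 4.33 FPKM).

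The remaining 3 BH3-only genes had the lowest levels of the group. Bbc3, which encodes PUMA, had 0.690, 2.11 and 1.30 FPKM, and Pmaip1, which encodes NOXA, had 1.23, 0.418 and 0.789 FPKM. Their order differed between tumours, with Bbc3 minus Pmaip1 at -0.76, 2.09 and 0.66 on the log2(FPKM + 0.1) scale. Hrk, known mainly from neurons, was covered by 0, 5 and 3 fragments, which gives 0, 0.0342 and 0.0184 FPKM. In tumour 1 a count of 0 allows up to 0.0196 FPKM, so the tumours could not be ranked for Hrk at this depth. Bid minus Bad was -0.42 ± 0.33 and Bcl2l11 minus Bmf was 0.41 ± 0.17, with the same sign in all 3 tumours for both.

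Among the initiator and other apoptotic caspases, Casp8 stood highest. Casp8, the initiator of the death receptor pathway, had 9.50, 9.41 and 6.47 FPKM. Casp9, the initiator at the apoptosome, had 1.06, 1.74 and 1.72 FPKM and was not separated from 1 FPKM. Casp8 exceeded Casp9 by 2.43 ± 0.60, a 5.38-fold difference, in all 3 tumours. Casp2, linked to the response to DNA damage and mitotic errors, had 4.94, 6.02 and 5.46 FPKM. Casp6, an executioner-type caspase that cleaves lamins, had 3.91, 5.05 and 5.54 FPKM, and Casp6 minus Casp2 was -0.19 ± 0.18 with 1 of 3 tumours positive. None of these 4 passed the comparison between tumours described below.

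Downstream of mitochondria, Apaf1, the scaffold of the apoptosome, had 2.74, 2.72 and 2.71 FPKM, the narrowest spread of any member above 0. Apaf1 exceeded Casp9 by 0.85 ± 0.39 in all 3 tumours. Diablo, which encodes the mitochondrial protein SMAC that relieves caspases of their inhibitors, had 9.76, 14.7 and 17.3 FPKM, lowest in tumour 1. Aifm1, a mitochondrial flavoprotein that can move to the nucleus in cell death, had 16.3, 12.9 and 11.7 FPKM, highest in tumour 1. Of the 1527 distinct 50-base words of Diablo, 1229 (80.5%) also occur in other annotated genes, 1100 of them in Gm49027. Gm49027 is not listed by that name among the deposited symbols, so the level of Diablo is uncertain.

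The inhibitor of apoptosis genes were all above 1 FPKM, and 2 of the 4 were much higher in tumour 1. Xiap, the direct caspase inhibitor, had 10.6, 5.18 and 4.70 FPKM, and Birc2, which encodes the ubiquitin ligase cIAP1, had 10.2, 5.72 and 3.49 FPKM. In both, tumour 1 was above the other tumours by more than the counting error as deposited. With the trends removed Xiap had 5.57, 6.08 and 7.53 FPKM, lowest in tumour 1, whereas Birc2 had 7.40, 5.82 and 4.80 FPKM, still highest there. Birc6, a very large ubiquitin-conjugating enzyme, had 16.4, 13.0 and 13.1 FPKM. Birc3, which encodes cIAP2 and lies 13445 bp from Birc2 on chromosome 9, had 3.18, 2.83 and 3.66 FPKM and did not share the pattern of its neighbour. Birc2 minus Birc3 was accordingly 1.66, 0.99 and -0.07 on the log2 scale in tumours 1, 2 and 3. Diablo minus Xiap was -0.12, 1.48 and 1.86 as deposited and 1.14, 1.14 and 0.98 with the trends removed. Birc6 minus Xiap was 1.13 ± 0.44 with all 3 tumours positive.

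In death receptor signalling, Cflar, which encodes the catalytically inactive Casp8 relative c-FLIP, was the most abundant with 23.2, 16.9 and 13.3 FPKM. Cflar exceeded Casp8, which lies 36491 bp from it on chromosome 1, by 1.05 ± 0.22, a 2.07-fold difference, in all 3 tumours. Both were higher in tumour 1 than in tumour 3 as deposited. With the trends removed Cflar was nearly level (17.9, 17.2 and 17.1 FPKM), while Casp8 had 9.35, 8.90 and 7.05 FPKM, still lowest in tumour 3. The adaptor Fadd had 2.58, 4.27 and 5.12 FPKM, and the adaptor Tradd, which joins the TNF receptor to its kinase complex, had 2.27, 3.43 and 4.32 FPKM. Fadd minus Tradd was 0.24 ± 0.06 as deposited, the smallest spread of the 21 contrasts between members. With the trends removed it was -0.06, 0.34 and 0.45 in tumours 1, 2 and 3, with an SD of 0.27. The kinase Ripk1, shared by survival and death signalling, had 6.27, 5.76 and 3.97 FPKM.

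The necroptosis pair was unequal. Mlkl, the pore-forming protein of necroptosis, had 12.1, 10.8 and 10.7 FPKM. Ripk3, the kinase that activates it, had 0.450, 1.15 and 1.55 FPKM, from 18.8, 50.4 and 78.3 implied fragments. Ripk3 was thus well under Mlkl in every tumour, by -3.44 ± 0.92 on the log2 scale, and Ripk1 minus Ripk3 was 2.36 ± 1.12.

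The inflammatory caspases differed most between the tumours and were highest in tumour 1. Casp1 (chromosome 9, 5298517 to 5307281 on mm9), the protease that matures interleukin-1 beta, had 45.1, 29.2 and 11.5 FPKM in tumours 1, 2 and 3. Casp4, the mouse caspase-11 that senses lipopolysaccharide, lies 1578 bp from it and had 3.37, 1.24 and 0.645 FPKM from 122, 43 and 25 fragments. Casp12, a mouse gene linked to endoplasmic reticulum stress and the inflammasome, lies a further 8684 bp away and had 20.4, 6.41 and 2.84 FPKM. All 3 neighbours lay in the same order, tumour 1 above tumour 2 above tumour 3, with ratios of highest to lowest of 3.92, 5.23 and 7.19. Casp1 exceeded Casp4 by 4.04 ± 0.38, a 16.4-fold difference, and Casp4 minus Casp12 was -2.28 ± 0.29.

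Markers of other cell types were read beside these caspases, since macrophages are a known source of Casp1 and Casp4. All 9 macrophage markers measured were above 1 FPKM. Their summed level was 293, 538 and 996 FPKM, lowest in tumour 1, where the 3 caspases were highest as deposited. Lyz2 alone had 146, 230 and 602 FPKM. Cd14 was instead highest in tumour 2 (35.5, 67.1 and 54.5 FPKM), and Mrc1 was lowest there (6.00, 4.90 and 10.0 FPKM). After the removal of base composition trends described later, the macrophage sum was 368, 497 and 882 FPKM. Cd14 was then lowest in tumour 3 (47.9, 61.3 and 44.1 FPKM), and C1qc was highest in tumour 2 (21.1, 31.7 and 29.7 FPKM). Casp1 was then highest in tumour 2 (29.8, 31.1 and 16.2 FPKM), while Casp4 and Casp12 stayed highest in tumour 1. As deposited, the summed neutrophil markers were 4.71, 12.9 and 28.1 FPKM in tumours 1, 2 and 3, with Elane at 0 in all 3 tumours. T cell markers summed to 6.25, 7.27 and 11.3 FPKM and B cell markers to 0.133, 0.429 and 0.714 FPKM. Among the T cell markers Cd247 was instead highest in tumour 1 (4.56, 3.14 and 3.33 FPKM), while the others were lowest there. None of the NK cell markers was above 1 FPKM by the test. Their sum was 2.61, 1.15 and 1.77 FPKM, highest in tumour 1, as the caspases were. Of these markers only Gzmb was clearly highest there (1.60, 0.524 and 0.549 FPKM). Klrb1c and Prf1 were lowest in tumour 1, and Ncr1 was level in tumours 1 and 3 (0.755, 0.336 and 0.755 FPKM). Luminal epithelial markers fitted the tissue label: 9 of 10 were above 1 FPKM, including Krt8, Krt18 and Epcam but not Krt19. They summed to 3932, 4548 and 3255 FPKM. Csn3 made up most of each sum (2761, 3037 and 1884 FPKM), and the other luminal markers did not share its order. Krt8 and Krt18 were lowest in tumour 1, for example, while Epcam and Cd24a were highest there. Fibroblast markers summed to 252, 338 and 282 FPKM, endothelial markers to 15.3, 23.1 and 23.5 FPKM, and adipocyte markers to 59.4, 43.6 and 190 FPKM. The fibroblast markers Postn (88.6, 51.1 and 27.1 FPKM) and Dcn (17.2, 10.0 and 10.8 FPKM) were highest in tumour 1, and the other fibroblast markers were lowest there. Tek alone of the endothelial markers was highest in tumour 1 (1.17, 0.690 and 0.655 FPKM). Of 6 basal markers, 2 were above 1 FPKM. The part of cell makeup in the caspase levels was not tested. Beside Casp14, known from the outer layers of the epidermis, the 5 keratinocyte markers found summed to 1.84, 2.80 and 3.08 FPKM. Lor and Ivl were at 0 in all 3 tumours, Krt1 was at 0.0424 FPKM or less, Krt10 had 0.629, 0.560 and 0.486 FPKM, and Sbsn, the 1 marker above 1 FPKM, had 1.18, 2.24 and 2.55 FPKM. For Casp14 itself, a count of 0 allows 0.0436, 0.0456 and 0.0410 FPKM at the median locus.

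Differences between the 3 libraries were tested with Cochran's Q on the deposited intervals, in genes averaging 1 FPKM or more, calling a gene where the Benjamini-Hochberg adjusted p was under 0.05 and the highest tumour was at least 2 times the lowest. This test measures counting error only and says nothing of a condition. It called 10 of 32 members, against 32.1% of 11193 genes, so the members were called about as often as other genes. Casp1, Casp4, Casp12, Xiap and Birc2 were highest in tumour 1, and Bax, Bad, Bik, Bbc3 and Ripk3 were lowest in tumour 1. The median ratio of highest to lowest was 1.66 over the 32 members and 1.75 over all genes. Without the minimum ratio 29 members passed, against 90.5% of all genes. With tumour 1 left out and the ratio kept, Casp1 and Casp12 were called, 2 of 31 members, against 5.68% of all genes. With tumour 3 left out, 5 were called (Bik, Bbc3, Casp4, Casp12 and Xiap), against 14.1% of all genes. Levels in tumour 1 were lower in general, the median gene lying -0.35 (log2) relative to the mean of tumours 2 and 3. With median-of-ratios scaling, which takes out that shift, 10 members were again called, against 27.9% of all genes. Of these 7 were shared, while Bax, Bad and Bik dropped out and Bcl2, Cflar and Ripk1 came in.

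The members' differences ran along the base composition of their transcripts. Over 32 members, the difference of tumour 1 from the mean of tumours 2 and 3 (log2) had a Pearson r of -0.87 and a Spearman rho of -0.89 with transcript GC content, across genes that share the same 3 libraries. Over 11054 genes the same r was -0.53 and rho -0.67. For Casp1, Casp12 and Xiap, whose transcripts have under 42% GC, the median difference was 1.30, against 1.15 for all genes of that class. For the 8 members with at least 54% GC it was -0.98, against -0.68 for all such genes, and for the 11 members from 46% to under 50% it was 0.01, against -0.15. Low-GC members were thus high and GC-rich members low in tumour 1, as in the whole table.

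**Figure D2:**
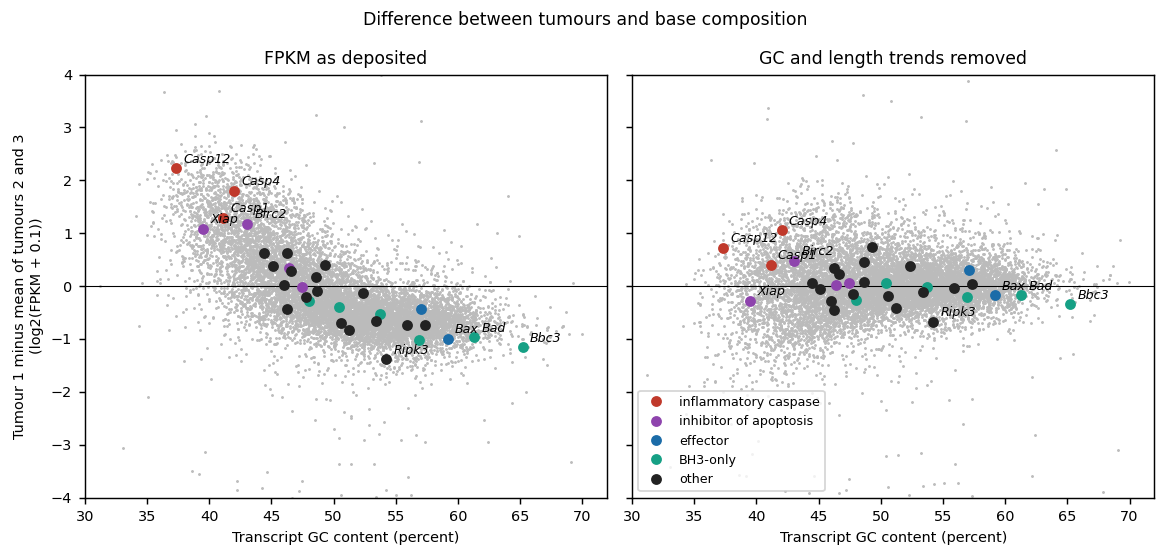
Difference of tumour 1 from the mean of tumours 2 and 3 (log2 FPKM) against transcript GC content (percent), as deposited and after removal of GC and length trends; grey points are all genes that averaged 1 FPKM or more and coloured points are members, with 104 and 100 of 11054 genes outside the plotted range. The members fall from Casp12 at the top left to Bbc3 at the bottom right in the deposited values (r = -0.87), and lie nearer 0 once the trends are removed (r = -0.42).

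When smooth trends with transcript GC content and length were removed from each tumour, keeping each gene's mean over the tumours, most members came closer together. The members' r with GC became -0.42, and that over all genes 0.04. Only Casp4 and Casp12 were still called between tumours, 2 of 31 members, against 15.3% of 11153 genes. Casp12 then had 10.0, 7.68 and 4.72 FPKM, a ratio of 2.12, and Casp4 had 2.36, 1.29 and 0.912 FPKM, a ratio of 2.59. Casp1 had 29.8, 31.1 and 16.2 FPKM, with tumours 1 and 2 level and tumour 3 lower, a ratio of 1.92. The ratio fell to 1.35 for Xiap, with the direction turned, 1.54 for Birc2 and 1.19 for Bax. Aifm1 went the other way, with a ratio of 1.76 against 1.39 as deposited, and Apaf1 had 1.34 against 1.01. The number of members with a ratio under 1.5 was 24 with the trends removed and 13 as deposited. Genes in general came closer as well. The median ratio fell from 1.66 to 1.28 over the members and from 1.75 to 1.39 over all genes. The part of library composition in these differences was not tested further.

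**Figure D3:**
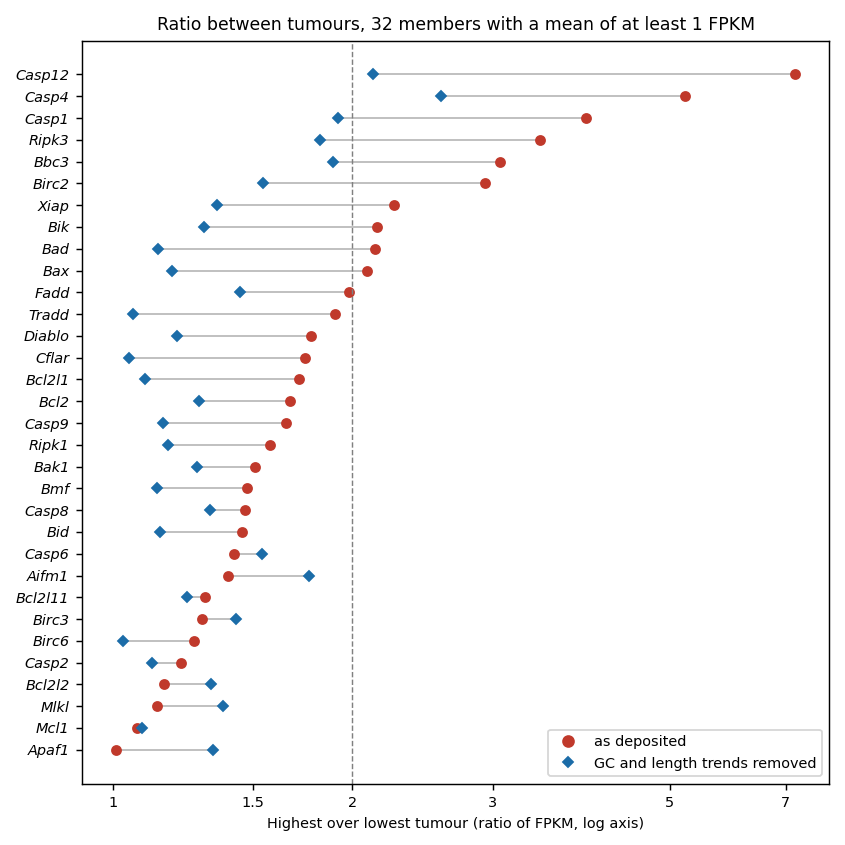
Ratio of the highest to the lowest tumour for each member averaging 1 FPKM or more (log axis), as deposited (red circles) and after removal of GC and length trends (blue diamonds); the dashed line is a ratio of 2. Casp12 has the largest deposited ratio, 7.19, and after trend removal Casp4 (2.59) and Casp12 (2.12) lie above the line.

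Of the 21 contrasts between members, 16 had the same sign in all 3 tumours, and 18 did with the trends removed. The exact two-sided sign-flip permutation test cannot go below p = 0.25 with 3 tumours, and the smallest adjusted p over the 21 contrasts was 0.328, so none could pass a threshold of 0.05. The SD over tumours was smaller for 18 of 21 contrasts once the trends were removed. Removal keeps each gene's mean nearly as it was, so this spread and the values of single tumours could change, but hardly the mean differences. A trend shared by all 3 tumours is not removed and stays in these contrasts. Neighbours in the order of mean levels often overlapped: Diablo (13.9 ± 3.84 FPKM), Aifm1 (13.6 ± 2.39) and Birc6 (14.2 ± 1.96) did not differ beyond their spread (SD, n = 3 each), nor did Casp8 (8.46 ± 1.72) and Bak1 (8.39 ± 1.73). Mcl1 was separated from Bcl2l1 (18.2 ± 4.92) in every tumour, whereas Casp1, second by its mean, spread from below to above it.

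**Figure D4:**
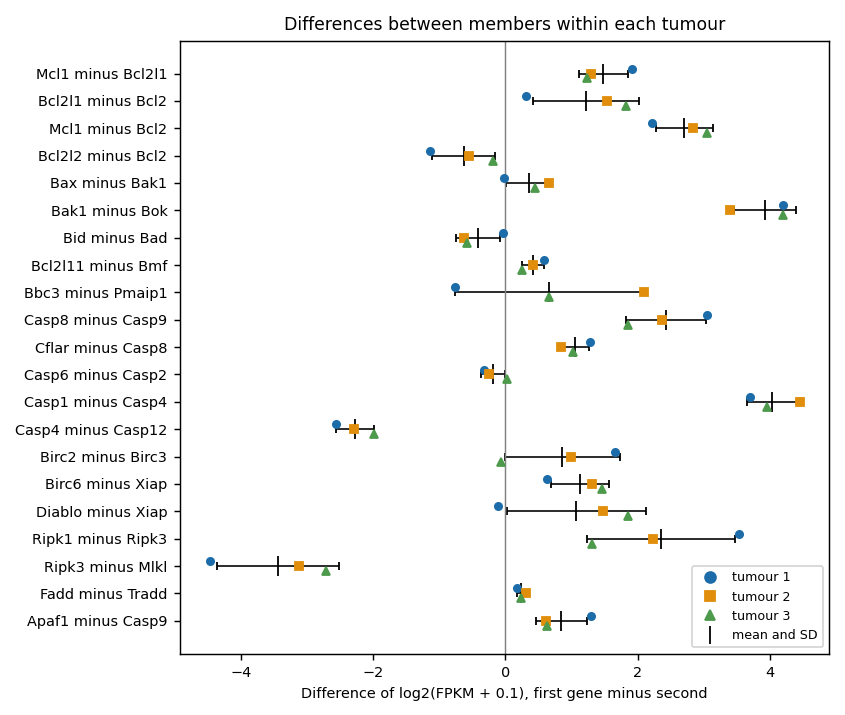
Difference in log2(FPKM + 0.1) of the first minus the second gene for 21 pairs of members, with 1 point per tumour and the mean with SD. Casp1 minus Casp4 (4.04) and Bak1 minus Bok (3.93) lie furthest above 0 and Ripk3 minus Mlkl (-3.44) furthest below, while the points of Bbc3 minus Pmaip1 fall on both sides of 0.

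Summed by role, prosurvival transcripts outweighed the effectors and BH3-only genes in each tumour. The 4 prosurvival genes summed to 74.7, 83.1 and 83.8 FPKM, of which Mcl1 made up 63.5%, 61.1% and 60.8%. The effectors summed to 13.7, 21.8 and 24.6 FPKM and the BH3-only genes to 21.7, 32.3 and 33.1 FPKM, both lowest in tumour 1 as deposited. With the trends removed the prosurvival sums were 84.0, 77.7 and 78.6 FPKM and the effector sums 19.8, 19.7 and 18.8 FPKM, so that tumour 1 was no longer lowest in either, while the BH3-only sums of 26.7, 29.8 and 28.6 FPKM were still lowest there. The log2 ratio of prosurvival to effector sums was 2.05 ± 0.35 as deposited, highest in tumour 1 at 2.44, and its SD was 0.06 with the trends removed. The ratio of prosurvival to BH3-only sums was 1.49 ± 0.25. The apoptotic caspases summed to 19.4, 22.2 and 19.2 FPKM and hardly varied, against 68.9, 36.8 and 14.97 FPKM for the inflammatory caspases, whose log2 ratio over the apoptotic caspases was 1.83, 0.73 and -0.36. With the trends removed the inflammatory sums were 42.2, 40.1 and 21.9 FPKM, which leaves tumour 3 lowest. The inhibitors of apoptosis summed to 40.4, 26.7 and 24.9 FPKM as deposited and to 30.6, 28.5 and 30.5 FPKM with the trends removed, a narrow range. These sums are descriptions with no test.

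**Figure D5:**
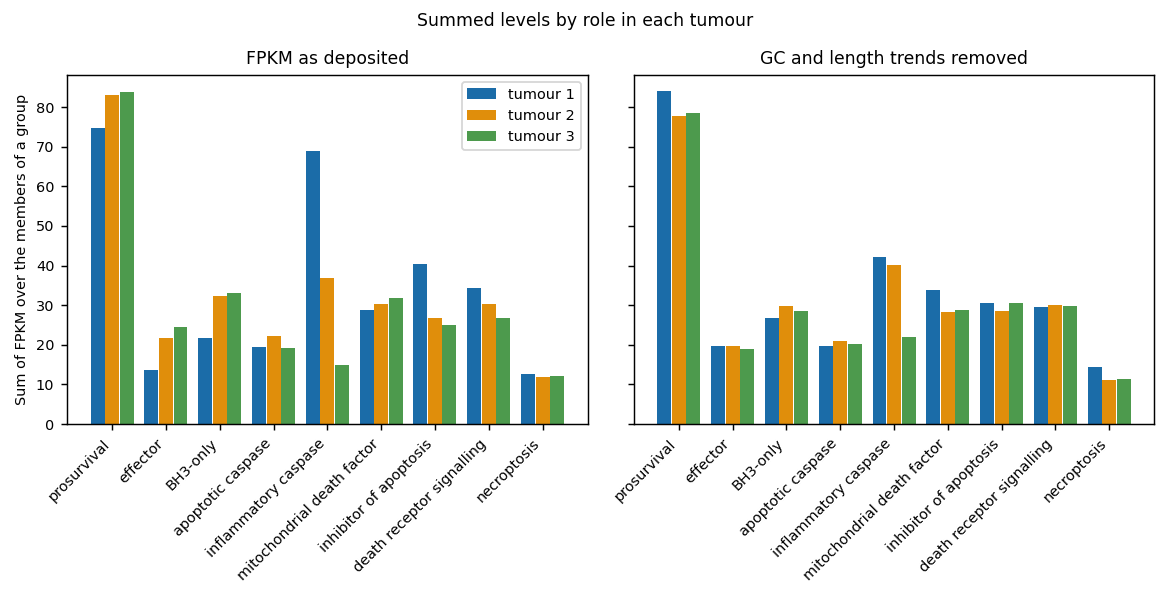
Summed FPKM of the members of each role in tumours 1, 2 and 3, as deposited and after removal of GC and length trends, with bars from 0. The inflammatory caspase bars descend from tumour 1 (68.9) to tumour 3 (14.97) as deposited, and after trend removal tumours 1 and 2 are close (42.2 and 40.1) with tumour 3 lower (21.9).

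Other genes of the same pathways, taken from a list of 56 of which 55 were found, were mostly expressed as well. Of the 54 tested, 41 were above 1 FPKM, against 54.2% of all symbols, 3 were below it, against 32.5%, and 10 were not separated. The highest mean levels were those of the mitochondrial porin Vdac1 (139 FPKM) and of the survival factors Tmbim6 (116 FPKM) and Bag1 (108 FPKM), and the lowest above 0 were those of Bcl2l10, Fasl and Lrdd, all below 1 FPKM. Between tumours, 19 of 45 were called, against 32.1% of all genes. With the trends removed 12 were called, against 15.3%, and 9 genes were called both ways. With median-of-ratios scaling the number was 13, against 27.9% of all genes. Of the listed genes that act with the inflammatory caspases, chosen after their values were seen, the inflammasome adaptor Pycard had 1.32, 1.33 and 3.92 FPKM, the Casp1 substrate Il1b had 3.05, 9.42 and 13.5 FPKM, and the pore-forming Casp1 and Casp4 substrate Gsdmd had 2.05, 2.45 and 4.61 FPKM. All 3 were highest in tumour 3, where Casp1 and Casp4 were lowest and the summed macrophage markers highest. With the trends removed Pycard and Il1b stayed called and Gsdmd, with 2.90, 2.22 and 3.61 FPKM, did not. Il18, another Casp1 substrate, had 1.38, 0.586 and 0.574 FPKM, highest in tumour 1 as Casp1 was, and the inflammasome sensor Nlrp3 had 0.151, 0.851 and 0.855 FPKM. Both averaged under 1 FPKM and were not compared between tumours. The prosurvival Bcl2a1 genes were also highest in tumour 3 (Bcl2a1b at 10.3, 14.9 and 23.8 FPKM), and as near-identical copies their separate levels are uncertain.
A further 11 genes called between tumours as deposited fell into 3 patterns. Highest in tumour 1 were Bnip3l, a mitophagy receptor (19.9, 16.9 and 6.89 FPKM), the deubiquitinase Cyld (6.41, 4.50 and 2.92 FPKM), Casp8ap2 and Moap1. Highest in tumour 2 was Bnip3, a hypoxia-induced relative of Bnip3l (25.9, 40.7 and 19.3 FPKM). Highest in tumour 3 were Endog, Traf2, Tnfaip3, Zbp1, Pgam5 and Cad, which is the pyrimidine synthesis enzyme and not the caspase-activated nuclease Dffb. Of these 11, Bnip3 and Moap1 were also called with the trends removed.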

How the data were processed

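Total RNA libraries of 3 tumours were analysed from the authors' deposited FPKM values per gene with their interval bounds, made with TopHat and Cufflinks on mm9 per the submitters' processing notes. Neither tool versions nor a strand setting were found in those notes. Of 22310 rows, 21881 symbols remained after rows of the same symbol were added, and 182 symbols with a status other than OK were not tested. The series design states 3 different mice; the tumours are numbered in accession order.

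For levels, limma 3.58.1 under R 4.3.3 was used (trend and robust moderation, intercept only, pseudocount 0.1). Tumours were compared with Cochran's Q (2 degrees of freedom), taking the half-width of each deposited interval as 2 standard errors. It measures counting error only, as do the limits from a count of 0, which allows 3 fragments. Trends with transcript GC and length (GENCODE models, matched for 98.1% of symbols) were subtracted after lowess fits (span 0.3). The members, the pathway list and the marker lists were chosen with earlier results of these data known. All 36 members were described; of the pathway list, the 3 highest, the 3 lowest above 0 and the genes called between tumours were named, apart from 1 result that is not reported here. Alternatives changed the pseudocount, filter, scaling, moderation, level, thresholds and trends, or left out a tumour.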

Additional observations from a re-analysis of the deposited data

How the results depend on the processing

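Members above 1 FPKM numbered 26 to 33 under all alternatives, against 28 as reported, and the share of all symbols above ran from 41.3% to 79.1%. Members below numbered 2, but 0 with a mean of at least 0.5 FPKM required (Bok and Hrk were then not tested), 1 with FPKM totals scaled to one sum, 4 against 2 FPKM, 1 against 0.5 FPKM and 1 to 2 when 1 tumour was left out. Of the pathway list 3 were below, but 0 with that minimum, 1 with scaled totals and 5 with a pseudocount of 1. The number was also 5 without the filter at 0 or without moderation, 6 with trends removed and 9 against 2 FPKM. Of all symbols, 0.881% were below with that minimum, 23.3% with scaled totals, 26.6% against 0.5 FPKM and 40.1% against 2 FPKM. Under the other settings named here the share was 27.5% to 41.5%. Members called between tumours (10) numbered 2 with trends removed, against 15.3% of all genes, and 6 at a mean of at least 5 FPKM, against 28.1%. They numbered 29 with no minimum ratio, against 90.5%, and 5 at a ratio of 3, against 11.3%. When 1 tumour was left out they numbered 2 to 8, with 2 without tumour 1 and 5 without tumour 3. The shares of all genes were then 5.68% without tumour 1, 29.4% without tumour 2 and 14.1% without tumour 3. The pathway list's 19 became 12, 9, 42, 7 and 5 to 17 under the same settings. It was 5 without tumour 1 or without tumour 3, and 13 with median-of-ratios scaling. The members stayed at 10 with that scaling, against 27.9% of all genes. The contrast Bbc3 minus Pmaip1 was -0.048 without tumour 2, against 0.67 as reported, and ranged from there to 1.38 when 1 tumour was left out. The cause of these shifts was not tested. Bbc3 and Casp9 passed 1 FPKM without tumour 1, and Casp4 without tumour 3. Of the recomputations of the counts, contrasts and group ratios, some of them given above, 191 were classed as the same, 16 as weaker, 8 as stronger and 1 as reversed. Contrasts and group ratios classed as the same kept their direction. Counts classed as the same could still move, such as from 28 to 33 members above 1 FPKM, or from 19 to 13 genes of the pathway list called between tumours. Depth limits Casp14, Hrk, Bok, Ripk3, Casp4 and Pmaip1 most, each with under 30 fragments in at least 1 tumour. No paired analysis was possible because there is only 1 group.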

Other observations

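Around Casp1, Casp4, Casp12, Birc2 and Birc3 on chromosome 9, the genes between Casp12 and Yap1 were read because the members there differed between tumours, and they were chosen after their values were seen. Dync2h1, a motor of primary cilia, had 3.12, 1.12 and 0.870 FPKM in tumours 1, 2 and 3, and Tmem123, a membrane receptor linked to cell death, had 36.4, 30.2 and 14.8 FPKM. Both were called between tumours and were highest in tumour 1, as were Casp1, Casp4, Casp12 and Birc2, but neither call remained with GC and length trends removed (ratios of 1.75 and 1.52). The matrix metalloproteinases of the same stretch ran differently. Mmp3 had 2.19, 6.94 and 13.7 FPKM and Mmp12, an elastase of macrophages, had 1.04, 2.92 and 4.80 FPKM, both lowest in tumour 1. Mmp13 had 0.838, 5.87 and 0.487 FPKM, highest in tumour 2. Dcun1d5, with a transcript of 41.1% GC, had 29.4, 34.1 and 39.5 FPKM, and Yap1, with 50.3% GC, had 15.95, 17.1 and 17.0 FPKM. Mmp3, Mmp12, Mmp13 and Dcun1d5 were called with the trends removed. Pdgfd, with 39.9% GC, had 0.747, 0.488 and 0.378 FPKM, highest in tumour 1, but averaged under 1 FPKM and was not compared between tumours. Low-GC genes of the stretch thus included some that were highest in tumour 1 and some that were not. The part of base composition in these levels was not tested.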
